A study of Mus musculus with 2 samples.

Results

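The genes described here are 48 genes of the cell division cycle, 22 with a role in S phase and 26 with a role in mitosis, out of 32285 genes listed for each cell. They were chosen by symbol, from lists of genes known for these roles, and all 48 symbols were found. The rule uses no measured value of these data, although the lists were drawn up with earlier results of these data known. In each division cycle a cell copies its DNA once, in S phase, and separates the copies in mitosis. The genes for the replication machinery are transcribed around the entry into S phase, under E2F transcription factors, and the genes for chromosome condensation, the spindle and the mitotic cyclins later, in G2 and mitosis, when B-MYB and FOXM1 join the MuvB complex at their promoters. In the embryonic cerebral cortex, radial glia divide at the ventricle and produce *Eomes*-positive intermediate progenitors, which divide away from it, while neurons have left the cycle. GABAergic interneurons arise from *Dlx*-expressing progenitors of the ventral forebrain and migrate into the cortex.

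The data were single-cell RNA sequencing of the cerebral cortex of mouse embryos at E16.5. The animals were wild type (WT) controls, which the labels name EomesDot and the series title assigns to an *Eomes*-Cre line. Both libraries, replicates 1 and 2, had this genotype and no treatment, so that every comparison below is between cell classes within these libraries. The labels do not say whether a library came from 1 embryo or from several. The p-values below rest only on the spread left in 1 fit of all classes after the difference between the libraries is taken out. This spread may be technical. The study asked how migrating interneurons act on cortical progenitors, and for this question the cycling of each progenitor class is a baseline.

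After filtering, 5966 and 10247 cells remained in replicates 1 and 2, with a median of 5706 and 4938 unique molecular identifiers (UMIs, each marking 1 captured RNA molecule) per cell. The kept cells held 39274402 and 59319842 of the 46398156 and 64324236 UMIs of all barcodes. The libraries shared 40 cell barcodes, 21 of them among the cells kept. Cells were assigned to classes from UMIs of marker genes alone, none of which was a cell cycle gene. The numbers of cells in replicates 1 and 2 were 149 and 218 for pallial radial glia, 363 and 513 for *Eomes*-positive cells, 191 and 305 for *Dlx*-positive progenitors, 87 and 191 for vascular cells, 32 and 91 for microglial cells, 1777 and 2819 for excitatory neurons and 741 and 1027 for GABAergic neurons. A further 2626 and 5083 cells met the rule of none of these classes. They held 34.1% and 43.7% of the S phase UMIs and 30.1% and 39.0% of the mitosis UMIs of all kept cells, more than any class, and 35.9% and 42.7% of all UMIs. Over both libraries, 124 radial glia, 208 *Eomes*-positive cells and 162 *Dlx*-positive progenitors had exactly the smallest number of marker UMIs that their class allowed. The classes carried their defining markers, which the class rules themselves use, so that these levels do not test the class names. Levels are UMIs per 1e6 UMIs of a class (CPM). Those of *Pax6*, a transcription factor of pallial radial glia, were 343 and 392 CPM there, those of *Eomes* were 615 and 611 CPM in *Eomes*-positive cells, those of *Dlx1* were 575 and 539 CPM in *Dlx*-positive progenitors, those of the endothelial junction gene *Cldn5* were 2539 and 2525 CPM in vascular cells and those of the complement gene *C1qa* were 2173 and 1985 CPM in microglial cells. The microglial class also carried *Mrc1*, a marker of macrophages at the brain's borders, at 1425 and 2879.5 CPM, and its cells are divided by this gene further on. The 8 marker genes of excitatory neurons, all detected in each class, summed to 1626 and 1439.8 CPM in microglial cells and 958 and 914 CPM in vascular cells, against 395 and 447 CPM in radial glia, 1526 and 1603 CPM in *Eomes*-positive cells, 843 and 776 CPM in *Dlx*-positive progenitors, 1534 and 1521 CPM in GABAergic neurons and 4942 and 5116 CPM in the excitatory neurons themselves. Their part in the results on these classes was not tested.

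The promoters of the members were searched for the letters by which the S phase and mitosis programmes are usually recognised. Of these promoters 6 are shown, all of genes named in the later results. In RefSeq promoter windows of build GRCm38.p6, from 250 bases before to 50 bases after a gene's start, 42 of the 48 members had an entry. Both strands were searched for an E2F type motif (TTT, 2 bases that are each C or G, then CGC), for the cell cycle genes homology region (CHR, TTTGAA) and for the CCAAT box. Promoters are counted by gene, and a gene with more than 1 window counted if any of them held the motif. The E2F type motif stood in 8 of 20 S phase promoters (40.0%) and in 1 of 22 mitosis promoters (4.55%). It stood in 2.60% of the promoters of all 27025 genes with a window of that length. The order was the opposite for the CHR, which stood in 15 of 22 mitosis promoters (68.2%), 4 of 20 S phase promoters (20.0%) and 20.2% of all promoters. The CCAAT box was common to both lists, with 75.0% of S phase and 77.3% of mitosis promoters against 41.1% of all. A CHR together with a CCAAT box stood in 13 of 22 mitosis promoters, 3 of 20 S phase promoters and 8.97% of all. These matches describe letters and no binding was measured.
The 150 bases just before the start are printed 5′ to 3′ on the gene's strand, with motif letters of either strand in capitals, for 2 S phase genes, 3 mitosis genes and *E2f8*, an S phase member that holds a CHR and a CCAAT box and no E2F type motif, as *Cdc45* and *Mcm2* do.
*Mcm6*, chr1:128359706-128359855, minus strand: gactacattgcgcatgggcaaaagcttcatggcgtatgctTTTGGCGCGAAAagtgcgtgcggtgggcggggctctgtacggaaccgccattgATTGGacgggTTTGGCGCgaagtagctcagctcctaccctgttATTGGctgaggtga
*Cdc6*, chr11:98908001-98908150, plus strand: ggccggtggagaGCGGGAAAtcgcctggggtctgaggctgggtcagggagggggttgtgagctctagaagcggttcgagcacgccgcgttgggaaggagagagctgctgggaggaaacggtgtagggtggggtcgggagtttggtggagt
*Cdc20*, chr4:118437344-118437493, minus strand: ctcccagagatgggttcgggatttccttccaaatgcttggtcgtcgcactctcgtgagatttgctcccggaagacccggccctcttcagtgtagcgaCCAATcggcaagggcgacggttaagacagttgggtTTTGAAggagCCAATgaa
*Mki67*, chr7:135716380-135716529, minus strand: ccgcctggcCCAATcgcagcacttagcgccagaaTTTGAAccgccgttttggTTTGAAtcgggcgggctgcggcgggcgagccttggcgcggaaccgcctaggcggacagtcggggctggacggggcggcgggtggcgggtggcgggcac
*Cdk1*, chr10:69352913-69353062, minus strand: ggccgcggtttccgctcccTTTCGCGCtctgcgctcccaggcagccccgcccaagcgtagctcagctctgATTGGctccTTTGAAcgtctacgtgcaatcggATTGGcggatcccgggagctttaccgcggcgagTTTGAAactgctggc
*E2f8*, chr7:48881597-48881746, minus strand: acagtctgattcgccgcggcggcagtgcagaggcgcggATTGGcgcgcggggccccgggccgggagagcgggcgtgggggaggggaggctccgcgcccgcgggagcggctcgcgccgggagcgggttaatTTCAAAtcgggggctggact

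Pallial radial glia and *Dlx*-positive progenitors had the highest summed CPM of both lists, *Eomes*-positive and vascular cells had less, and excitatory neurons had the lowest in the means of the 2 libraries. The 22 S phase members summed to 2611 and 2228 CPM in replicates 1 and 2 in *Dlx*-positive progenitors, 1709 and 1259.7 CPM in radial glia, 937 and 976 CPM in *Eomes*-positive cells, 791 and 662 CPM in vascular cells, 345 and 654 CPM in microglial cells, 493 and 474 CPM in GABAergic neurons and 290.2 and 307 CPM in excitatory neurons. Both libraries placed *Dlx*-positive progenitors above radial glia and radial glia above every other class, whereas *Eomes*-positive and vascular cells differed less. The 26 mitosis members summed to 5264 and 5958 CPM in *Dlx*-positive progenitors and 5123 and 5077 CPM in radial glia, with the *Dlx*-positive value higher in each library. They summed to 2202 and 2192 CPM in *Eomes*-positive cells, 1848 and 1402 CPM in vascular cells, 384 and 1073 CPM in microglial cells, 558 and 672 CPM in GABAergic neurons and 121 and 174 CPM in excitatory neurons. The microglial sums of the 2 libraries spanned those of the GABAergic neurons. The S phase list gave 25.0 and 19.9% of all member UMIs in radial glia, 29.9 and 30.8% in *Eomes*-positive cells, 33.2 and 27.2% in *Dlx*-positive progenitors and 70.6 and 63.7% in excitatory neurons. In sums over a class, more cycling cells and more RNA per cycling cell cannot be told apart.

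**Figure D1:**
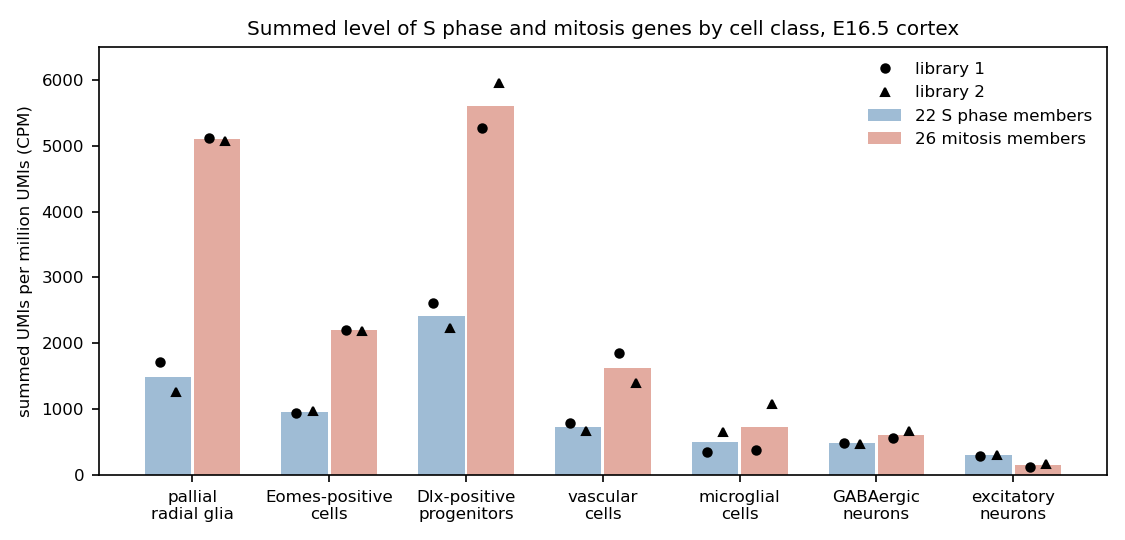
Summed level of the 22 S phase and the 26 mitosis members (CPM, vertical axis) by cell class (horizontal axis), with a point for each of the 2 libraries and a bar for their mean. Both lists are highest in *Dlx*-positive progenitors and radial glia and lowest in excitatory neurons for mitosis, where the sums are 121 and 174 CPM.

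**Figure D2:**
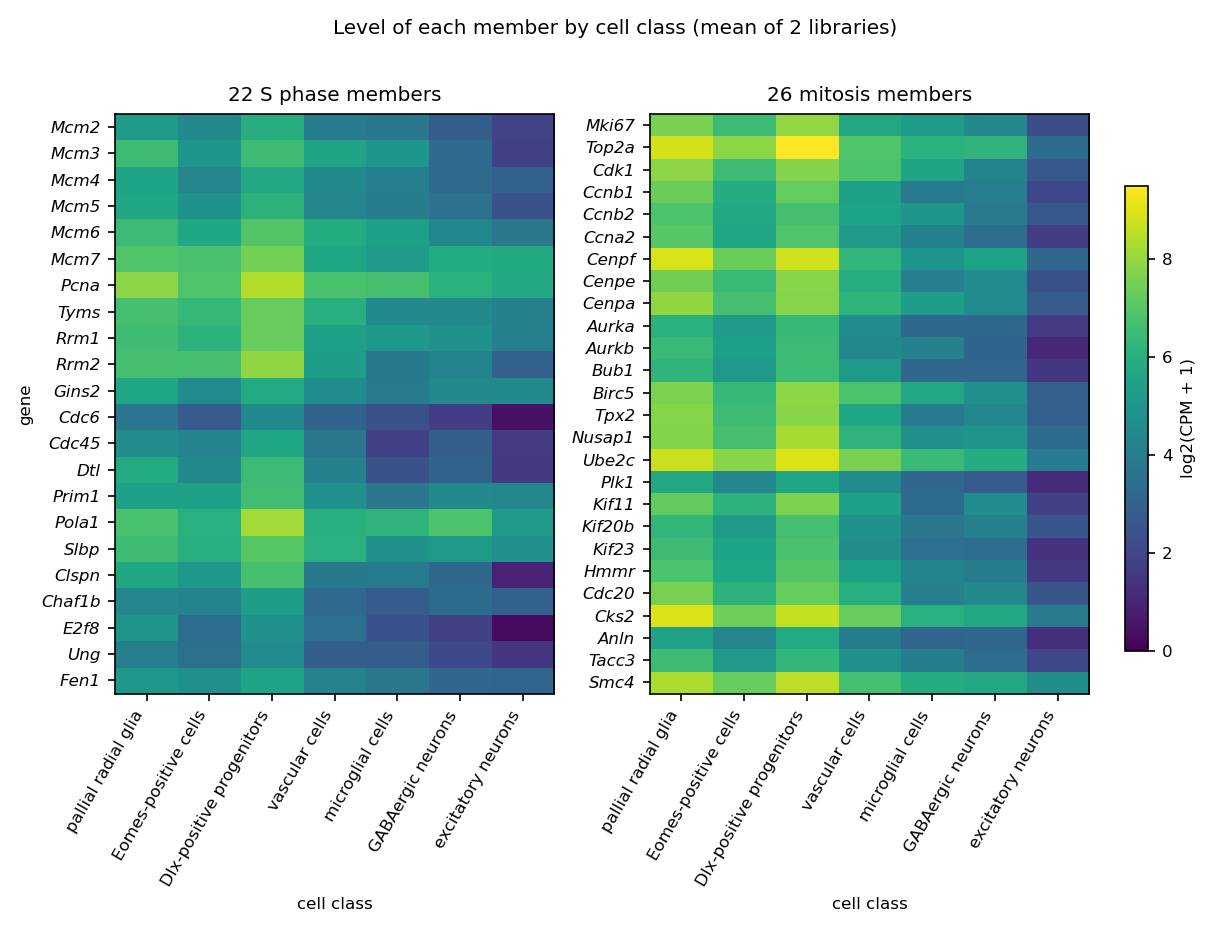
Level of each of the 48 members (colour, log2 of CPM plus 1, mean of 2 libraries) by cell class (columns), with S phase members left and mitosis members right. In excitatory neurons the highest S phase member is *Mcm7* at 52.8 and 54.7 CPM and the highest mitosis member *Smc4* at 24.2 and 25.3 CPM.

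The share of cells in which the lists were seen was counted after thinning each cell to 1500 UMIs, so that classes of unequal depth could be compared, and a cell counted with at least 2 UMIs of a list. Mitosis members passed this in 61.3% and 64.6% of *Dlx*-positive progenitors in replicates 1 and 2 (62.9% ± 2.36, mean and SD, n = 2) and in 61.1% and 52.3% of radial glia (56.7% ± 6.21). The shares were 20.1% and 21.6% in *Eomes*-positive cells, 23.0% and 22.5% in vascular cells, 9.38% and 20.9% in microglial cells and 7.83% and 10.0% in GABAergic neurons. In excitatory neurons, which should lack mitotic RNA, 2.08% and 2.87% of cells passed, and every other class lay above this in both libraries. The median depth before thinning was 7337 and 6156 UMIs in excitatory neurons, 10029 and 6819.5 in radial glia, 8613 and 7327 in *Eomes*-positive cells, 8304 and 7532 in *Dlx*-positive progenitors, 9237 and 7693 in vascular cells, 4575 and 6212 in microglial cells and 4128 and 4404 in GABAergic neurons. Without thinning the mitosis share was 84.6% and 78.9% in radial glia and 18.7% and 21.9% in excitatory neurons. The exact Clopper-Pearson 95% interval, which covers counting error only, was 1.98 to 25.0% for microglial cells of replicate 1 and 13.1 to 30.7% for those of replicate 2.

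For S phase members the same share was 65.4% and 58.0% in *Dlx*-positive progenitors, 48.3% and 34.9% in radial glia, 21.2% and 25.0% in *Eomes*-positive cells, 21.8% and 19.9% in vascular cells and 13.8% and 15.5% in GABAergic neurons. The level in excitatory neurons was 9.17% and 9.51%, and without thinning 60.7% and 54.8%, beside vascular cells without thinning (72.4% and 66.5%). Microglial cells, at 6.25% and 16.5% with exact 95% intervals of 0.766 to 20.8% and 9.53 to 25.7%, lay below the excitatory neurons in replicate 1 and above them in replicate 2. Each cell was then sorted by both lists, and the states are described without a test. Both lists passed in 47.3% ± 4.24 of *Dlx*-positive progenitors (mean and SD, n = 2), in 26.6% ± 7.06 of radial glia and in 11.3% ± 1.61 of *Eomes*-positive cells. Mitosis members alone passed in 30.1% ± 0.851 of radial glia, in 15.7% ± 6.60 of *Dlx*-positive progenitors (10.99% and 20.3% in replicates 1 and 2) and in 9.54% ± 0.534 of *Eomes*-positive cells. S phase members alone passed in shares that lay closer together, 15.0% ± 2.46 of radial glia, 14.5% ± 0.999 of *Dlx*-positive progenitors and 11.7% ± 1.03 of *Eomes*-positive cells. Neither list passed in 67.4% ± 2.11 of *Eomes*-positive cells, 66.1% ± 0.864 of vascular cells, 28.3% ± 8.67 of radial glia, 22.6% ± 1.36 of *Dlx*-positive progenitors and 88.6% ± 0.669 of excitatory neurons.

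The mitosis UMIs of *Eomes*-positive and vascular cells came from few cells. The 10% of cells with the most mitosis UMIs held 87.1% and 82.1% of those UMIs in *Eomes*-positive cells, 78.4% and 79.1% in vascular cells and 80.9% and 77.8% in GABAergic neurons. In radial glia they held 47.5% and 49.96% and in *Dlx*-positive progenitors 43.4% and 47.3%. They held 68.8% and 75.6% in microglial cells, and 48.2% and 49.2% in excitatory neurons, where the median cell had 1 mitosis UMI in both libraries against 21 and 7.5 in radial glia. At least 10 mitosis UMIs were seen in 34 and 52 of the 741 and 1027 GABAergic neurons. The same held for 7 and 14 of the 1777 and 2819 excitatory neurons. Whether these were doublets or cycling cells that missed the rule of another class was not tested.

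**Figure D3:**
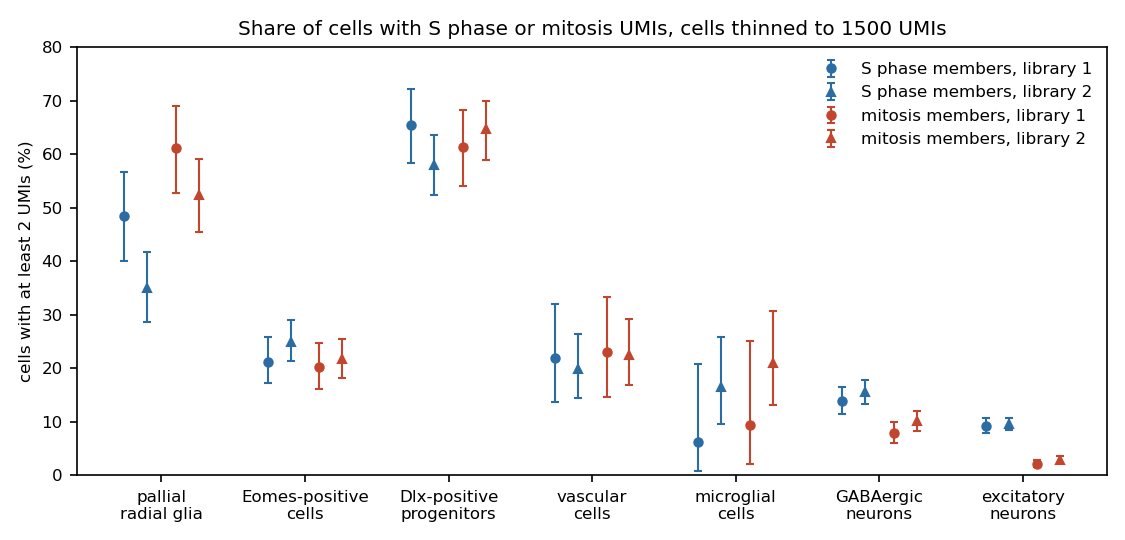
Share of cells (percent, vertical axis) with at least 2 UMIs of the S phase or the mitosis members after thinning to 1500 UMIs, by cell class (horizontal axis), with a point for each library and bars for the exact 95% interval, which covers counting error. Radial glia and *Dlx*-positive progenitors stand above the other classes, and excitatory neurons are at 2.48% ± 0.559 for mitosis.

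Against excitatory neurons, all 48 members were higher in pallial radial glia. For this test, UMI counts were summed per library and class and fitted with edgeR over 15738 genes, with the library as a block and an adjusted p under 0.05 as the threshold. Among all genes, 24.5% were called higher in radial glia. The median difference was 2.61 on the log2 scale over the S phase members and 5.08 over the mitosis members, beside -0.14 over all genes tested. Among the replication genes, *Mcm2*, a subunit of the helicase that opens DNA, stood at 35.3 and 39.4 CPM in radial glia and 2.65 and 2.82 CPM in excitatory neurons, a log2 difference of 3.6 ± 0.24 (SE), adjusted p = 2.05e-13. *Cdc6*, which loads this helicase at origins, stood at 18 and 6.77 CPM against 0.287 and 0.479 CPM (4.71 ± 0.52 (SE), adjusted p = 6.55e-09). *Clspn*, a checkpoint adaptor at the fork, differed by 5.47, *Rrm2*, the small subunit of ribonucleotide reductase, by 3.69, *Tyms*, which makes thymidylate, by 2.44 and *Ung*, which removes uracil from DNA, by 2.97. *E2f8*, a repressor of the E2F family, had the largest difference of all members, 6.75 ± 0.42 (SE), adjusted p = 2.91e-14, from 49 and 41 UMIs in radial glia and 3 and 4 UMIs in excitatory neurons.

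Among mitosis members the smallest difference, 3.53, was that of the condensin subunit *Smc4* (343 and 295 CPM in radial glia, 24.2 and 25.3 CPM in excitatory neurons). *Aurkb*, the kinase of the chromosomal passenger complex, reached 88.6 and 81.8 CPM against 0.645 and 1.65 CPM (5.96 ± 0.26 (SE), adjusted p = 9.26e-18). *Cenpf*, a kinetochore protein, reached 486 and 484 CPM against 6.73 and 9.0 CPM (5.78 ± 0.15 (SE), adjusted p = 8.99e-23). Both genes were higher in each radial glia sum than in each neuron sum by more than the spread between libraries. *Kif23*, a kinesin of cytokinesis, differed by 5.62, cyclin A2 (*Ccna2*) by 5.61, *Top2a*, which untangles DNA, by 5.54, the proliferation marker *Mki67* by 5.41, *Cdk1*, the mitotic kinase, by 5.34, its partner *Ccnb1* by 5.46, the centromeric histone *Cenpa* by 5.21, *Plk1*, a mitotic kinase, by 5.10, and *Cdc20* and *Ube2c*, which act with the anaphase-promoting complex, by 5.06 and 4.78. Most other genes of the same machinery moved the same way. Of 41 other genes of origin licensing, the fork and DNA synthesis, 35 were higher and 1 lower, the origin recognition subunit *Orc4* (-0.87). Of 14 genes of G1 to S control 12 were higher, of 34 kinetochore, checkpoint and spindle genes 34, and of 18 genes of mitotic entry, condensation and exit 17.

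Several S phase members kept UMIs in excitatory neurons. *Mcm7*, another subunit of the helicase, had 52.8 and 54.7 CPM there and 136 and 96.6 CPM in radial glia (0.96 ± 0.13 (SE), adjusted p = 3.70e-07). The sliding clamp *Pcna* had 51.4 and 53.2 CPM against 271 and 186 CPM (1.97 ± 0.13 (SE), adjusted p = 1.90e-13). *Prim1*, the primase subunit, had 18.7 and 20.6 CPM against 46.0 and 37.5 CPM (0.93 ± 0.17 (SE), adjusted p = 2.36e-05), the smallest difference of the 48. *Gins2*, of the GINS complex of the helicase, differed by 1.01, *Chaf1b*, a chaperone that deposits histones on new DNA, by 1.38, *Pola1*, the catalytic subunit of DNA polymerase alpha, by 1.55 and *Slbp*, which binds histone mRNA, by 1.62. By role, the median difference was 3.06 for the 6 helicase subunits, 4.51 for the 5 genes of origin loading and firing, 2.44 for the 3 genes of nucleotide supply and 1.93 for the 5 genes of the polymerase, clamp, repair and flap processing. The medians of the mitosis roles ran from 4.81 for the 8 genes of the spindle and cytokinesis to 5.41 for the 3 genes of chromosome structure, all above those of the S phase roles.

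In *Eomes*-positive cells, 47 of the 48 members were higher than in excitatory neurons, against 19.4% of all genes. The exception was *Gins2* at 23.5 and 22.6 CPM and 21.1 and 22.5 CPM in neurons (-0.04 ± 0.17 (SE), adjusted p = 0.86). The medians were 2.03 over S phase and 3.95 over mitosis members, and -0.11 over all genes. The largest differences were those of *Clspn* (4.92), *Aurkb* (4.92), *Kif23* (4.63), the spindle motor *Kif11* (4.53) and *Top2a* (4.50), by the rule that a named gene has at least 10 CPM in the higher class. The other G1 to S genes called higher were 12 of 14, with the kinase *Cdk2* (3.89), *E2f1* (2.20) and the pocket protein gene *Rbl1* (1.85) in front.

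Radial glia exceeded *Eomes*-positive cells in 37 of the 48 members, all 26 of the mitosis list and 11 of the 22 of the S phase list, and fell below them in none, whereas 17.0% of all genes were higher. The comparisons with radial glia share the radial glia sums, as those with neurons share the neuron sums. The median difference was 1.12 over the mitosis members and 0.65 over the S phase members, beside 0.00 over all genes. *Cks2*, a small subunit of cyclin-dependent kinases, had 493 and 523 CPM in radial glia and 162 and 176 CPM in *Eomes*-positive cells (1.56 ± 0.12 (SE), adjusted p = 1.99e-11). *Cenpf* had 175 and 156 CPM in *Eomes*-positive cells (1.52 ± 0.12 (SE), adjusted p = 3.87e-11) and *Ccnb1* 57.7 and 58.9 CPM (1.45 ± 0.16 (SE), adjusted p = 3.33e-08). The level in each library was more than doubled in radial glia for these 3 genes. The S phase list was split. *Mcm3* had 103 and 75.7 CPM against 27.4 and 33.6 CPM (1.5 ± 0.18 (SE), adjusted p = 1.08e-07) and *E2f8* had 32.7 and 25.2 CPM against 9.51 and 10.3 CPM (1.51 ± 0.31 (SE), adjusted p = 2.57e-04). *Pcna* (0.91), *Mcm2* (0.73), *Mcm6* (0.80) and *Slbp* (0.55) were also called. In contrast, *Rrm2* had 123 and 84.9 CPM against 108 and 95.5 CPM (-0.01 ± 0.16 (SE), adjusted p = 0.99) and *Prim1* 46.0 and 37.5 CPM against 41.9 and 43.1 CPM (-0.06 ± 0.17 (SE), adjusted p = 0.83), with libraries that overlapped. *Mcm7* (0.08), *Chaf1b* (0.09), *Fen1*, a flap nuclease (0.25), *Tyms* (0.35), *Rrm1* (0.38), *Cdc45* (0.38), *Clspn* (0.55), *Ung* (0.58) and *Cdc6* (1.07) were not called either. The S phase median rested on the library, being 0.86 in replicate 1 and 0.36 in replicate 2 alone. Of the other mitotic genes, 33 of 34 kinetochore, checkpoint and spindle genes were higher in radial glia, led by the spindle midzone gene *Prc1* (1.68). Of the 41 other replication genes 20 were higher, led by the polymerase delta subunit *Pold1* (1.58), and 1 lower. Of the 18 genes of mitotic entry, condensation and exit, 12 were higher and 1 lower. Of the 14 genes of G1 to S control, 6 were higher and 2 lower.

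In *Dlx*-positive progenitors all 48 members were higher than in excitatory neurons, against 19.0% of all genes, with medians of 3.03 over S phase, 5.01 over mitosis members and -0.18 over all genes. *E2f8* (6.66), *Clspn* (6.54), *Top2a* (6.13), *Aurkb* (5.96) and *Kif11* (5.94) led. Of the 48 members, 15 were lower in radial glia, against 12.6% of all genes, and 1 was higher, *Cks2*, against 15.3% of all genes. The lower members were 13 of the 22 of the S phase list and 2 of the 26 of the mitosis list. The medians were -0.56 and -0.13, and 0.01 over all genes. High doublet scores marked 10.5% and 14.4% of *Dlx*-positive progenitors and 2.01% and 2.75% of radial glia, and without the cells so marked 21 members were lower, 14 of the S phase list and 7 of the mitosis list.

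*Pola1* had 338 and 241 CPM in *Dlx*-positive progenitors and 118 and 101 CPM in radial glia (radial glia minus *Dlx*-positive, -1.34 ± 0.16 (SE), adjusted p = 9.01e-08). *Rrm2* had 254 and 224 CPM against 123 and 84.9 CPM (-1.16 ± 0.16 (SE), adjusted p = 1.11e-06) and *Prim1* 92.7 and 97.7 CPM against 46.0 and 37.5 CPM (-1.15 ± 0.16 (SE), adjusted p = 1.70e-06). For these 3 genes, which act in priming of DNA synthesis and in nucleotide supply, both *Dlx*-positive sums lay above both radial glia sums. *Clspn* (-1.06), *Cdc45*, a helicase partner (-0.91), *Chaf1b* (-0.90), *Rrm1* (-0.69), *Dtl*, a substrate receptor of the CUL4 ubiquitin ligase (-0.62), *Mcm2* (-0.60), *Mcm7* (-0.58), *Tyms* (-0.54), *Pcna* (-0.52) and *Slbp* (-0.44) were also lower in radial glia, whereas, of the other 9 S phase members, none was called, *Mcm3* (0.05), *E2f8* (0.08), *Mcm6* (-0.37), *Cdc6* (-0.78) and *Ung* (-0.45) among them. The mitosis members lower in radial glia were *Top2a*, at 703 and 791 CPM against 465 and 493 CPM (-0.59 ± 0.15 (SE), adjusted p = 0.0036), and the spindle gene *Nusap1* (-0.46). *Cks2* had 493 and 523 CPM in radial glia and 373 and 431 CPM in *Dlx*-positive progenitors (0.39 ± 0.12 (SE), adjusted p = 0.014). This call was lost, leaving 0 members higher, without the library block, with DESeq2, without the filter on low counts, with doublets removed, with stricter gates and after thinning. *Mki67* (-0.35), *Cdk1* (0.18), *Ccnb1* (0.16), *Ccna2* (0.18), *Cdc20* (0.33), *Plk1* (0.18), *Cenpa* (0.18), *Aurkb* (-0.01), *Ube2c* (-0.19) and *Smc4* (-0.17) were not called. The count of lower members was 10 with DESeq2, and 25 without the filter on low counts.

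Most of the listed regulators of the entry into S phase were also lower in radial glia than in *Dlx*-positive progenitors, against the 12.6% of all genes given above. Of the 14 genes of G1 to S control, 9 were lower and none higher, with *E2f2* at -2.50, *Myb* at -1.69 and *E2f1* at -1.12. Of the 41 other replication genes 13 were lower, led by the nuclease *Exo1* (-0.93), the clamp loader subunit *Rfc3* (-0.87) and the primase subunit *Prim2* (-0.83). Of the 18 genes of mitotic entry, condensation and exit, 5 were lower and 1 higher, with 15 below 0, and of the 34 kinetochore, checkpoint and spindle genes 4 were lower and none higher, with 26 below 0, a share of lower calls like that over all genes. *Foxm1* was lower (-0.96) and *Pttg1*, the securin that keeps separase inactive until anaphase, higher (1.23 ± 0.23 (SE), adjusted p = 1.35e-04).

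*Pola1* also had UMIs in GABAergic neurons, 109.7 and 114 CPM, beside the 118 and 101 CPM of radial glia, while *Rrm2* had 21.1 and 15.9 CPM there and *Prim1* 22.6 and 21.0 CPM. After thinning, *Pola1* was seen in 13.8% and 14.3% of GABAergic neurons. Its UMIs enter the S phase sums of GABAergic neurons, 493 and 474 CPM, and of *Dlx*-positive progenitors, 2611 and 2228 CPM. They also enter the S phase shares of both classes, and values without *Pola1* are not given here.

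**Figure D4:**
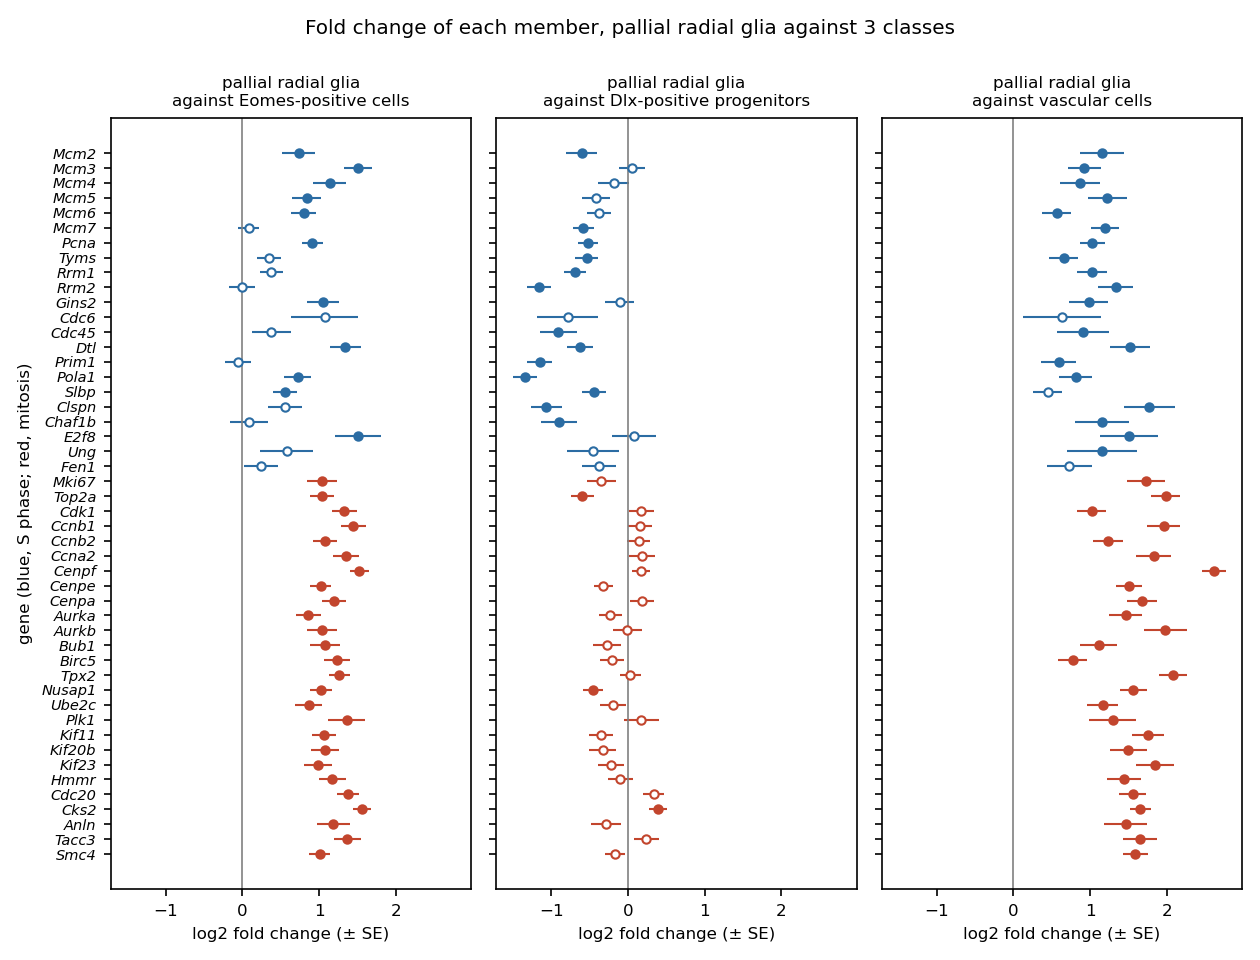
Log2 difference of each of the 48 members (horizontal axis, with bars of 1 SE) in radial glia against *Eomes*-positive cells, *Dlx*-positive progenitors and vascular cells, with filled points for members called by edgeR at an adjusted p under 0.05. Most S phase members lie left of 0 against *Dlx*-positive progenitors, with a median of -0.56, and all mitosis members lie right of 0 against the other 2 classes.

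In vascular cells, 44 of 48 members were higher than in excitatory neurons, against 25.8% of all genes, with medians of 1.80 over S phase and 3.55 over mitosis members, and -0.16 over all genes. *Cdk1* had 143 and 81.3 CPM in vascular cells against 3.87 and 6.07 CPM (4.32 ± 0.23 (SE), adjusted p = 7.71e-16). *Hmmr*, a spindle protein (4.11), *Aurkb* (3.97), *Mcm3* (3.95) and the checkpoint kinase *Bub1* (3.95) followed. The members not called were *Mcm7* (-0.24), *Gins2* (0.02), *Prim1* (0.34) and *Chaf1b* (0.23), which were among the S phase members with UMIs in neurons. Endothelial cells held 1594 and 1729.6 CPM of the mitosis list in the 2 libraries, and mural cells, the pericytes and smooth muscle cells around the vessel, 2285 and 745 CPM, so that the mural value differed between libraries. Radial glia exceeded vascular cells in 45 of the members, against 18.2% of all genes, with medians of 1.01 over S phase, 1.57 over mitosis members and 0.00 over all genes. *Cenpf* had 82.4 and 70.9 CPM in vascular cells (2.61 ± 0.16 (SE), adjusted p = 3.31e-14) and *Tpx2*, which activates Aurora A at the spindle, 41.2 and 54.2 CPM (2.08 ± 0.18 (SE), adjusted p = 1.03e-10). *Cdk1* (1.02) and *Birc5*, survivin (0.77), had smaller differences, and *Cdc6* (0.63), *Slbp* (0.45) and *Fen1* (0.73) were not called. After thinning to 1500 UMIs per cell 27 members were called higher in radial glia. The 11 marker genes of radial glia, 1 of them at 0 in replicate 1, summed to 1324 and 1253 CPM in vascular cells. The same sum was 4501 and 4107 CPM in radial glia. Within it, *Slc1a3* stood at 21.7 and 30.8 CPM in vascular cells against 738 and 833 CPM in radial glia. *Hes5* stood at 1.08 and 3.70 CPM against 125 and 143 CPM. What the vascular sum owes to RNA of radial glia was not tested. High doublet scores marked 17.2% and 26.7% of vascular cells, and without the cells so marked the mitosis share of vascular cells was 16.7% and 13.6% and 41 members were called higher than in neurons.

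In microglial cells, 38 of 48 members were higher than in excitatory neurons, 26 of the mitosis list and 12 of the S phase list, against 17.5% of all genes. The medians were 2.52 and 1.13, and -0.38 over all genes. The S phase median was 0.60 in replicate 1 and 1.37 in replicate 2 alone, and 18 of the 26 mitosis and 12 of the 22 S phase members differed in 1 direction in both libraries. These values rested on few molecules. In replicate 1, with 32 cells, the mitosis members summed to 80 UMIs and the S phase members to 72, and 6 mitosis and 5 S phase members had none. *Mki67* had 0 and 44 UMIs, *Top2a* 2 and 73 UMIs and *Cdk1* 5 and 40 UMIs in replicates 1 and 2. *Cdk1* differed from excitatory neurons by 3.41 ± 0.43 (SE), adjusted p = 1.34e-07, *Mcm3* by 3.64, *Hmmr* by 3.49, *Birc5* by 3.26 and *Top2a* by 3.21. After thinning to 1500 UMIs per cell 16 members were called higher and 1 lower. Cells with at least 3 UMIs of *Mrc1* held 193 and 1338 CPM of the mitosis list and the remaining cells 637 and 662 CPM, with an order that turned between libraries. Radial glia exceeded microglial cells in 41 members, against 17.3% of all genes, with medians of 1.28 over S phase, 2.39 over mitosis members and 0.19 over all genes, and *Cenpf* (3.86), *Dtl* (3.69) and *Tpx2* (3.44) had the largest differences. After thinning 26 members were called, and the S phase median was 2.32 in replicate 1 and 0.97 in replicate 2 alone, and the mitosis median 3.66 and 2.14. High doublet scores marked 18.8% and 39.6% of microglial cells, and without the cells so marked the mitosis share of microglial cells was 11.5% and 16.4%, 36 members were called higher than in neurons and 37 higher in radial glia.

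Over the pallial radial glia, *Eomes*-positive cells and *Dlx*-positive progenitors, the members could be ordered by the state of the cells that carried them. A cell was placed in the S phase only or the mitosis only state by the thinned UMIs of both lists, leaving out in turn the gene described, and each gene's unthinned level in the 2 states was compared. This order is a description with no test, since the states come from the other members. The states held unlike mixes of the classes when all members were counted. S phase only cells were 25 and 29 radial glia, 40 and 64 *Eomes*-positive and 29 and 42 *Dlx*-positive cells in replicates 1 and 2. Mitosis only cells were 44 and 67, 36 and 47, and 21 and 62 in this order. The part of this mix in the ratios was not tested. All 26 mitosis members and *E2f8* had more CPM in mitosis only cells in both libraries, where each library had a value. The lowest ratios were those of *Cdc6*, with 44.6 and 35.3 CPM in S phase only and 0.964 and 1.39 CPM in mitosis only cells (log2 ratio -5.53 and -4.66 in replicates 1 and 2), and *Ung*, with a log2 ratio of -5.98 and -4.13. The *Cdc6* ratio rested on 1 and 2 UMIs in mitosis only cells, with exact 95% intervals of -10.87 to -2.97 and -7.76 to -2.70, and that of *Ung* on 1 and 4, with intervals of -11.31 to -3.44 and -6.06 to -2.68. All intervals of these ratios cover counting error only and treat UMIs as independent, although UMIs gather in some cells. *Chaf1b* followed at -3.30 and -4.88 (intervals -4.81 to -2.08 and -7.20 to -3.27). The helicase subunits lay close together, from -2.17 and -2.59 for *Mcm4* to -1.92 and -2.08 for *Mcm5*, with *Mcm7* at -1.22 and -1.13, and *Pcna* lay at -2.01 and -1.84. The genes of nucleotide supply were carried by both states, with *Tyms* at -0.17 and -0.45, *Rrm2* at -0.36 and -0.02 and *Rrm1* at 0.01 and -0.11. *Rrm2* was highest in cells with both lists, 373 and 345 CPM, and had 9.03 and 8.84 CPM in cells with neither.

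*E2f8* stood apart from the other S phase members. It had 11.4 and 7.76 CPM in S phase only cells, 46.8 and 49.6 CPM in cells with both lists and 29.3 and 21.9 CPM in mitosis only cells (log2 ratio 1.35 and 1.5), from 10 and 8 UMIs in the S phase only cells, with intervals of 0.29 to 2.54 and 0.35 to 2.83. The windows of *Cdc45* and *Mcm2* also held a CHR and a CCAAT box and no E2F type motif. Their log2 ratios were -1.32 and -0.17 for *Cdc45* and -2.01 and -2.02 for *Mcm2*. A link between promoter letters and this order was not tested. At the mitosis end, *Smc4* had the smallest ratio, 1.62 and 2.12, with 150.3 and 104 CPM already in S phase only cells. *Top2a* (3.68 and 3.87), *Mki67* (4.16 and 3.64) and *Ccna2* (3.75 and 4.86) lay in the middle. *Cdc20* (5.0 and 6.16), *Ccnb1* (8.16 and 4.55) and *Hmmr* (7.60 and 7.1) lay at the far end. In S phase only cells of replicates 1 and 2, *Ccnb1* had 1 and 16 UMIs (intervals 5.67 to 13.47 and 3.83 to 5.36) and *Hmmr* 1 and 2 (intervals 5.11 to 12.91 and 5.24 to 10.15). *Plk1* had 0 and 2 UMIs in those cells, and no ratio in replicate 1. The order of the genes at this end is not settled by these counts. Of the genes outside the lists, *E2f1* lay with the S phase members (-3.60 and -2.06) and the spindle gene *Aspm* (5.26 and 5.77) and the CDK1 phosphatase *Cdc25c* (5.75 and 6.24) with the mitosis members.

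**Figure D5:**
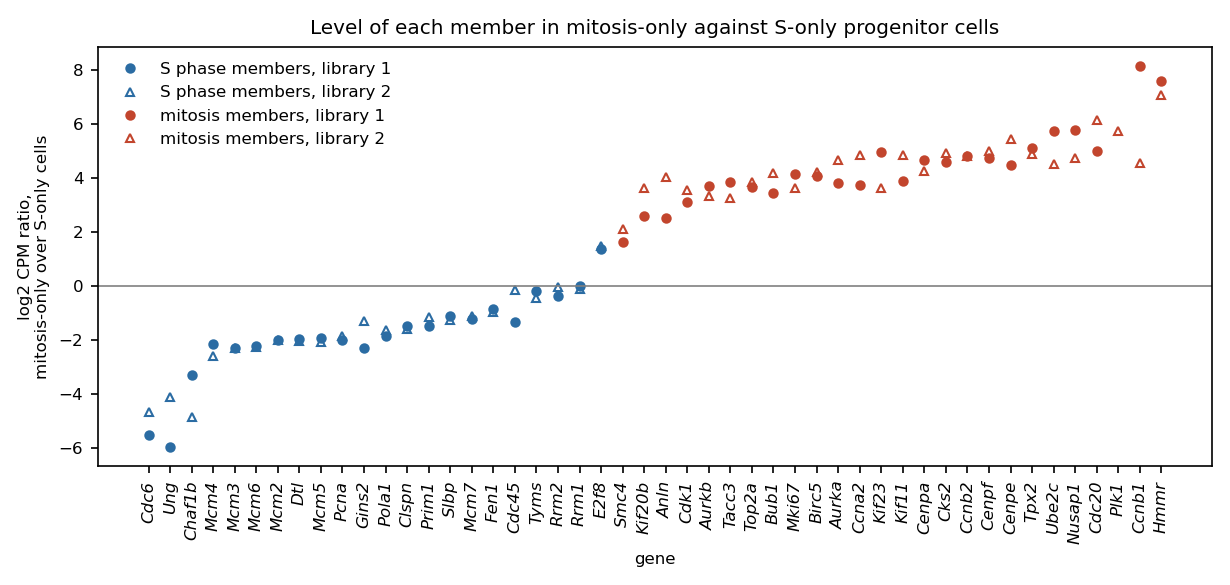
Log2 ratio of each member's CPM in mitosis only over S phase only cells (vertical axis), with a point for each library and the members (horizontal axis) in the order of their mean. The cells are radial glia, *Eomes*-positive cells and *Dlx*-positive progenitors. S phase members lie below 0 or near it apart from *E2f8* at 1.35 and 1.5, and mitosis members lie above 0, from *Smc4* upwards.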

How the data were processed

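The deposited values were raw UMI counts per gene and cell barcode, which the authors made with Cell Ranger, version 7.0.0 per the submitters' processing notes and 7.1.0 per the file headers, on mouse genome mm10 per the same notes, from 10x Genomics 3′ v3.1 libraries. The annotation, and whether intronic reads were counted, are not given in the sources used here, and retained introns or reads from a neighbouring gene could add to a count. No deposited value was normalized. The total was 46398156 and 64324236 UMIs.

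Cells with 1500 to 60000 UMIs and under 10% mitochondrial UMIs were kept (Python 3.11.15, scanpy 1.11.5, numpy 2.4.6, scipy 1.17.1). Pallial radial glia needed 8 UMIs and 4 distinct genes of a radial glia list, 2 UMIs of *Pax6*, *Emx1* and *Emx2*, and no *Eomes*. *Eomes*-positive cells needed 2 UMIs of *Eomes*, and no progenitor gene was asked for. *Dlx*-positive progenitors needed 2 UMIs of *Dlx1* and *Dlx2* and 4 UMIs of progenitor genes. Vascular and microglial cells needed 8 UMIs and 4 distinct markers. Excitatory neurons needed 4 UMIs of *Neurod6* and *Neurod2* and 4 UMIs of their other markers, with at most 1 *Dlx* UMI. GABAergic neurons needed 3 UMIs of *Gad1* and *Gad2* and 3 UMIs of *Dlx* genes. Both neuron classes were limited to 3 UMIs of the radial glia list and to no *Eomes*. Vascular and microglial cells had no such limit on neural markers. The part of these limits in the results was not tested. The minimums were set after seeing marker UMIs but not the members' values. Scrublet, run in scanpy on each library alone, gave doublet scores, and all cells were kept in the main results. An alternative removed the 432 and 1111 cells with the highest scores, at 0.8% for every 1000 barcodes, since automatic thresholds marked 0 and 251 cells.

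Counts were summed per library and class and tested in 1 fit with edgeR 4.0.16 (R 4.3.3), using TMM scaling, a filter of 10 counts in 2 or more sums, quasi-likelihood tests and the library as a block, since both classes of a comparison come from the same libraries. Adjusted p-values are Benjamini-Hochberg over 15738 genes. DESeq2 1.42.0, other scaling, filters, gates and thinning were alternatives. Scripts were tested on simulated data.

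The 48 members and the other lists were chosen with earlier results of these data known. The genes named with values were 19 members taken for their roles, and for each comparison the 5 called members with the largest difference (10 CPM or more where higher, both libraries in 1 direction), with 3 for each other list. Members not called were named as exceptions. Promoter sequences are from RefSeq, build GRCm38.p6.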

Additional observations from a re-analysis of the deposited data

How the results depend on the processing

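Of 1631 alternative values for single genes, those without a library aside, 1548 kept their direction and their side of the threshold, 57 lost the call, 14 gained it and 12 changed sign. With the library block left out, *Cks2* was no longer higher in radial glia than in *Dlx*-positive progenitors (0 members called higher) and 15 members were still lower. Counts with 1 library left out could not be had, since no residual degrees of freedom remained, and fitted values were replaced by the ratios of the other library. Their medians ranged from 2.63 to 2.89 over S phase members for radial glia against excitatory neurons, 0.36 to 0.86 against *Eomes*-positive cells, -0.77 to -0.41 against *Dlx*-positive progenitors (-0.22 to -0.00 over mitosis members), and 0.60 to 1.37 for microglial cells against excitatory neurons. The member count that fell most was that of microglial cells against excitatory neurons after thinning to 1500 UMIs, 16 higher and 1 lower (*Mcm7*), with 26 for radial glia over microglial cells and 27 for radial glia over vascular cells. Fewer UMIs entered these fits by construction. Against *Dlx*-positive progenitors, 0 members were higher with DESeq2, without the count filter (25 lower), with doublets removed, with stricter gates or after thinning. With doublets removed, 1 member (*Mcm7*) was lower in vascular cells than in excitatory neurons. The cause was not tested.

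Signs changed for *Rrm2* in radial glia against *Eomes*-positive cells, 0.025 with DESeq2, 0.024 with RLE scaling, 0.073 with doublets removed, 0.12 with stricter gates and 0.31 thinned. In radial glia against *Dlx*-positive progenitors, thinning gave *Cdk1* -0.17, *Ccnb1* -0.18 and *Cenpa* -0.23, and removing doublets gave *Ccnb1* -0.044 and *Plk1* -0.037. Thinning also gave *Mcm6* -0.052 in radial glia against vascular cells and *Slbp* -1.35 in microglial cells against neurons, where *Smc4* was -0.014 without replicate 2 and 1.88 without replicate 1.

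The shares of cells moved with the cut. For S phase members in radial glia, *Eomes*-positive cells, *Dlx*-positive progenitors, vascular cells and microglial cells, in this order, they were 85.1%, 70.8%, 89.1%, 69.5% and 44.7% without thinning, 64.4%, 48.6%, 79.1%, 45.9% and 33.5% with at least 1 UMI, 30.1%, 13.5%, 51.0%, 9.99% and 7.06% with at least 3 UMIs and 65.5%, 38.2%, 75.7%, 31.7% and 36.1% in cells thinned to 3000 UMIs. For mitosis members they were 81.7%, 53.4%, 79.4%, 52.1% and 42.9%, 73.2%, 39.1%, 74.5%, 41.3% and 30.7%, 50.1%, 16.1%, 57.0%, 17.6% and 12.9% and 68.4%, 29.1%, 68.6%, 29.5% and 23.5%. Stricter gates gave 73.7% for S phase and 77.3% for mitosis in *Dlx*-positive progenitors, 66.8% for mitosis in radial glia and 19.7% in *Eomes*-positive cells. With doublets removed, vascular cells gave 18% for S phase and 15.1% for mitosis, and *Eomes*-positive cells 18.1% for mitosis. In microglial cells, the 32 cells of replicate 1 limit the precision.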
